A study of Mus musculus with 4 samples.

Results

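DNA methylation was read at 4 genes of the ROR and Rev-erb family of nuclear receptors, Rora, Rorb, Nr1d1 and Nr1d2, in C3H10T1/2 mesenchymal stem cells after DNMT1 depletion. The members were taken by family, and Rora is also a gene that the study names as a target of DNMT1 from these samples, so its choice was not independent of them. They make up 4 of the 28883 genes with any region listed. Their entries comprise 17 gene regions (promoter, 5′ UTR, exons, introns and 3′ UTR) among 76155 such regions with a level in every library. A further 12 entries, 5 CpG islands and 7 island shores among 30534, overlap a member gene by at least 1 base.

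C3H10T1/2 is a mouse cell line derived from C3H embryos that can take on several mesenchymal fates. Cells were transfected for 48 h either with a non-targeting siRNA (NC) or with siRNA against DNMT1 (siDNMT1), the enzyme that copies methylation onto new DNA strands. They were then left uninduced or induced for osteoblast (OB) differentiation for 3 days with ascorbic acid, β-glycerophosphate and dexamethasone, which gave the groups NC uninduced, siDNMT1 uninduced, NC OB and siDNMT1 OB. Each group was sequenced as 1 bisulfite library, so no difference below has a replicate check and no p-value can be given. Depletion by siRNA is transient, all groups come from a single cell line, and neither DNMT1 itself nor lineage markers could be checked, because expression was not analysed here. The libraries listed between 155398 regions (siDNMT1 OB) and 159705 regions (siDNMT1 uninduced). Each value is the deposited methylation level, the fraction of methylated CpG cytosines in a region from 0 to 1. The read depth behind a level is unknown, and no interval can be set around it.

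ROR proteins are transcription factors that bind, mostly as monomers, to the ROR response element and activate transcription there. The Rev-erb proteins, encoded by Nr1d1 (Rev-erbα) and Nr1d2 (Rev-erbβ), bind the same element and repress it by recruiting the NCoR and HDAC3 corepressor complex. Together they form the stabilising loop of the circadian clock, in which they drive and restrain the clock activator gene Arntl (Bmal1). Mice that lack functional Rora, the staggerer strain, have thin bones, and Rorb acts in retina, brain and bone. CpG-rich gene starts usually stay unmethylated, whereas CpG-poor gene bodies are usually methylated.

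The sequence upstream of each start shows how unequal the CpG targets of methylation were among the members. Each line holds the 250 bases before a RefSeq start on GRCm38.p6, read 5′ to 3′ on the gene's strand, with every CpG in capitals. All 4 genes had an entry, and Rorb had one for each of its 2 starts.
Rora, chr9:68653536-68653785, plus strand: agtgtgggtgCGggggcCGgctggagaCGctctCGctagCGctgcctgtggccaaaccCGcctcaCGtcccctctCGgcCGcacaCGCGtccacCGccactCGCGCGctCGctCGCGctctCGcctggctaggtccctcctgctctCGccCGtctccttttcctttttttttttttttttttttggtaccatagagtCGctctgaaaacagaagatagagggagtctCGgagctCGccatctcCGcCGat
Rorb first start, chr19:19111197-19111446, minus strand: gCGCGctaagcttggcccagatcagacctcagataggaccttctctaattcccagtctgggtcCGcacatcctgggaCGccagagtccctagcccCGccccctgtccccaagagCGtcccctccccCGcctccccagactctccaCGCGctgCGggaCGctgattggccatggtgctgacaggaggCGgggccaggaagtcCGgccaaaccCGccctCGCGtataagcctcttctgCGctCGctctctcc
Rorb internal start, chr19:19001118-19001367, minus strand: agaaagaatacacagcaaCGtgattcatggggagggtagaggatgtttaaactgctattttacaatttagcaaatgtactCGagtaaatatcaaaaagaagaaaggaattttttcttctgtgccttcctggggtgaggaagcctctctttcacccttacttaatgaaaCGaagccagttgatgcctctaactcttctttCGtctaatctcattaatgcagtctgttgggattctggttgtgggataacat
Nr1d1, chr11:98775378-98775627, minus strand: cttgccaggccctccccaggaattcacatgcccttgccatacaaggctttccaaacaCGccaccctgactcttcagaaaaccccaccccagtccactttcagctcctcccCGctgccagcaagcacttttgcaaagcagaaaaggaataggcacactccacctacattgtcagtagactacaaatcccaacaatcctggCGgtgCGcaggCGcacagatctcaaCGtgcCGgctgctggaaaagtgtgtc
Nr1d2, chr14:18239107-18239356, minus strand: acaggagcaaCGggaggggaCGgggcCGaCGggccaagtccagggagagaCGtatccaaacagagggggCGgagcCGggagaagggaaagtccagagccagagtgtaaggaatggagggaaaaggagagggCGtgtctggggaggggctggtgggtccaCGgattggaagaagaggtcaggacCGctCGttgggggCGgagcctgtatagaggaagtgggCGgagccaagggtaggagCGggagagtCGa

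Rora had the most CpGs in this stretch, 26, followed by the first start of Rorb with 18 and Nr1d2 with 15. Nr1d1 had 7 and the internal start of Rorb 4, around the median of 6 over all 32851 RefSeq promoters. The core AGGTCA of the ROR element, searched on both strands, occurred once, 77 bases before the start of Nr1d2, and 14.0% of all promoters held it. The E-box CACGTG, the site of the clock activators, was found in none of these 5 stretches and in 6.02% of all promoters. Over the 2 kb before the first GENCODE start the members were more alike, with 49 CpGs at Rora, 39 at Nr1d2, 37 at Rorb and 36 at Nr1d1, against a median of 39 over the 4016 promoters with a level on the same chromosomes.

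Rora (ENSMUSG00000032238, plus strand of chromosome 9, 68653786 to 69388246), the founding ROR gene, was unmethylated at its start and methylated at its end. The 5′ UTR entry had a level of 0.0340 in NC uninduced, 0.0318 in siDNMT1 uninduced, 0.0317 in NC OB and 0.0305 in siDNMT1 OB cells. The introns stood at 0.346, 0.346, 0.361 and 0.346 in the same order. The levels thus climbed from the start into the gene body, and all libraries showed the same ranking of regions. At the 3′ UTR the level was 0.826 in NC uninduced, 0.836 in siDNMT1 uninduced, 0.820 in NC OB and 0.816 in siDNMT1 OB cells, which placed it above 88.3% of all 3′ UTRs. The exons varied most, with 0.228 in NC uninduced, 0.167 in siDNMT1 uninduced, 0.192 in NC OB and 0.194 in siDNMT1 OB cells. The NC uninduced library was the highest and the siDNMT1 uninduced library the lowest, and the range of 0.0610 exceeded that of 78.1% of all exon entries.

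Rorb (ENSMUSG00000036192, minus strand of chromosome 19, 18930605 to 19111196) was methylated in each of its 4 gene regions listed. Its 5′ UTR entry had levels of 0.827 in NC uninduced, 0.766 in siDNMT1 uninduced, 0.807 in NC OB and 0.792 in siDNMT1 OB cells. Its mean was above that of 98.2% of all 5′ UTRs. The exons lay between 0.721 and 0.743, the introns between 0.641 and 0.667 and the 3′ UTR between 0.706 and 0.723. No library stood out over these 3 regions. No promoter entry was listed for Rorb in any library. Rorb has protein-coding transcripts from starts 110079 bases apart, and the files do not say which of them the entry covers.

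Nr1d1 (ENSMUSG00000020889, minus strand of chromosome 11, 98767932 to 98775333) had the widest gap between its promoter and 5′ UTR entries among the 3 members with both. Its 5′ UTR was nearly unmethylated, at 0.0165 in NC uninduced, 0.00872 in siDNMT1 uninduced, 0.0136 in NC OB and 0.0134 in siDNMT1 OB cells. Its promoter entry had levels of 0.804, 0.811, 0.807 and 0.776 in the same order, higher than 96.7% of all promoters. In every library the promoter entry thus stood far above the 5′ UTR entry. The exons of this gene had 0.566 in NC uninduced, 0.608 in siDNMT1 uninduced, 0.551 in NC OB and 0.566 in siDNMT1 OB cells, with the siDNMT1 uninduced library highest. The introns lay between 0.206 and 0.231. No 3′ UTR entry was listed for either Rev-erb gene, as for most genes, since 16.2% of the genes listed had one.

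Nr1d2 (ENSMUSG00000021775, minus strand of chromosome 14, 18204054 to 18239127) combined nearly unmethylated 5′ UTR and exon entries with a partly methylated promoter. The 5′ UTR levels were 0.0153 in NC uninduced, 0.0168 in siDNMT1 uninduced, 0.0156 in NC OB and 0.0233 in siDNMT1 OB cells. The exon entry, with 0.0153, 0.0165, 0.0152 and 0.0236, followed the 5′ UTR closely and exceeded no more than 12.0% of all exon entries. In both, the siDNMT1 OB library was the highest. A 5′ UTR is part of the exons, so the 2 entries may count the same cytosines and are not separate observations. The exon entry does not show the level of exons further into the gene. The promoter had levels of 0.282 in NC uninduced, 0.264 in siDNMT1 uninduced, 0.307 in NC OB and 0.255 in siDNMT1 OB cells. The introns had 0.379, 0.362, 0.346 and 0.318 in the same order. Both siDNMT1 libraries were below the NC library of the same induction state in these last 2 regions.

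**Figure D1:**
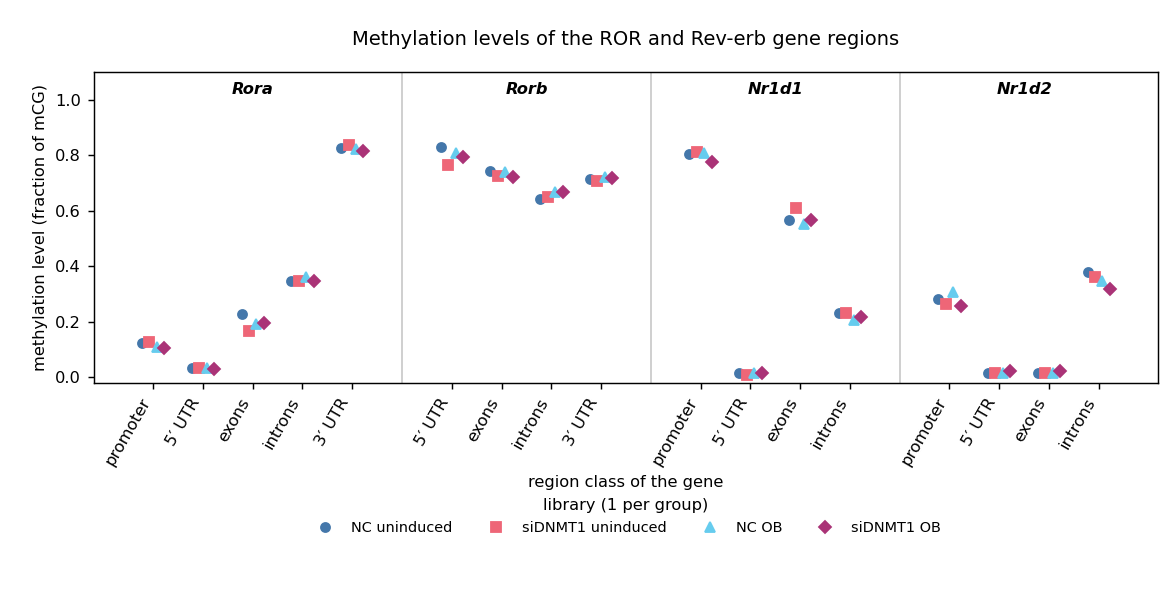
Methylation level (fraction of methylated CpG, y axis) of each gene region of Rora, Rorb, Nr1d1 and Nr1d2 (x axis) in the 4 libraries, 1 point per library and no error bars because there are no replicates. The points of a region lie close together, whereas regions differ widely, from 0.0130 on average at the 5′ UTR of Nr1d1 to 0.824 at the 3′ UTR of Rora.

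The spread over the 4 libraries was narrow relative to the gaps between the genes. In 10 of the 12 pairs of neighbours, ordered by level within a region class, the ranges over the 4 libraries did not overlap. The same count was not made for other sets of genes, so it does not set the members apart. At the promoter the order was Rora, Nr1d2 and Nr1d1, with Rora at no more than 0.126 and Nr1d2 at no less than 0.255. At the exons it was Nr1d2, Rora, Nr1d1 and Rorb. The exceptions were the 5′ UTRs of Nr1d1 and Nr1d2 and the introns of Rora and Nr1d2, whose ranges overlapped. The libraries are from different conditions, so these ranges hold any effects of siRNA and induction as well as technical error.

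The islands and shores resolved the position of these levels more finely than the entries per gene. The island across the start of Nr1d2 (chromosome 14, 18238225 to 18239412), which holds 128 CpGs, had levels of 0.0118 in NC uninduced, 0.0142 in siDNMT1 uninduced, 0.0109 in NC OB and 0.0145 in siDNMT1 OB cells. The shore inside the gene next to it (18236224 to 18238223) had 0.754, 0.743, 0.725 and 0.653 in the same order. The level thus rose from the island to this shore in all libraries. Each region has a single average, so where within the shore the rise lies is not resolved. On the other side, the shore before the gene (18239413 to 18241413) stood at 0.440, 0.445, 0.464 and 0.423, and the promoter entry of Nr1d2 lay between this shore and the island.

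At Rora the lowly methylated stretch reached into the upstream shore. The island across its start (chromosome 9, 68653546 to 68654962), with 127 CpGs, ranged from 0.0522 to 0.0636, and the shore before it (68651545 to 68653544) from 0.0158 to 0.0427. The shore inside the gene (68654963 to 68656963) was highest in siDNMT1 uninduced cells, at 0.157, and lowest in siDNMT1 OB cells, at 0.130. The shore before the island, like the one before Nr1d2, lies outside the annotated gene and is not among the 12. Further in, the start of a shorter protein-coding transcript at 69289682 lies inside a second CpG-rich island (69289646 to 69291400, 148 CpGs), which had levels of 0.132 in NC uninduced, 0.142 in siDNMT1 uninduced, 0.122 in NC OB and 0.147 in siDNMT1 OB cells. The shore before that island (69287645 to 69289644) was methylated, at 0.572 in NC uninduced, 0.598 in siDNMT1 uninduced, 0.571 in NC OB and 0.514 in siDNMT1 OB cells. The gene therefore has an unmethylated shore at its first start and a methylated shore at the internal one.

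Rorb and Nr1d1 have small islands downstream of their starts. The island of Rorb (chromosome 19, 19110176 to 19110732, 43 CpGs) lies at 464 to 1020 bases from the first start and had levels of 0.236 in NC uninduced, 0.298 in siDNMT1 uninduced, 0.265 in NC OB and 0.223 in siDNMT1 OB cells. It was the most methylated of the 5 islands in every library, and its range of 0.0753 exceeded that of 93.2% of all islands. Its shore (19108175 to 19110174) stayed between 0.624 and 0.635. The island of Nr1d1 (chromosome 11, 98773806 to 98774126, 28 CpGs) ranged from 0.0241 to 0.0359. The shore of Nr1d1 that spans the start (98774127 to 98776127) ranged from 0.0160 to 0.0204, and its mean exceeded that of only 4.36% of all shores.

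**Figure D2:**
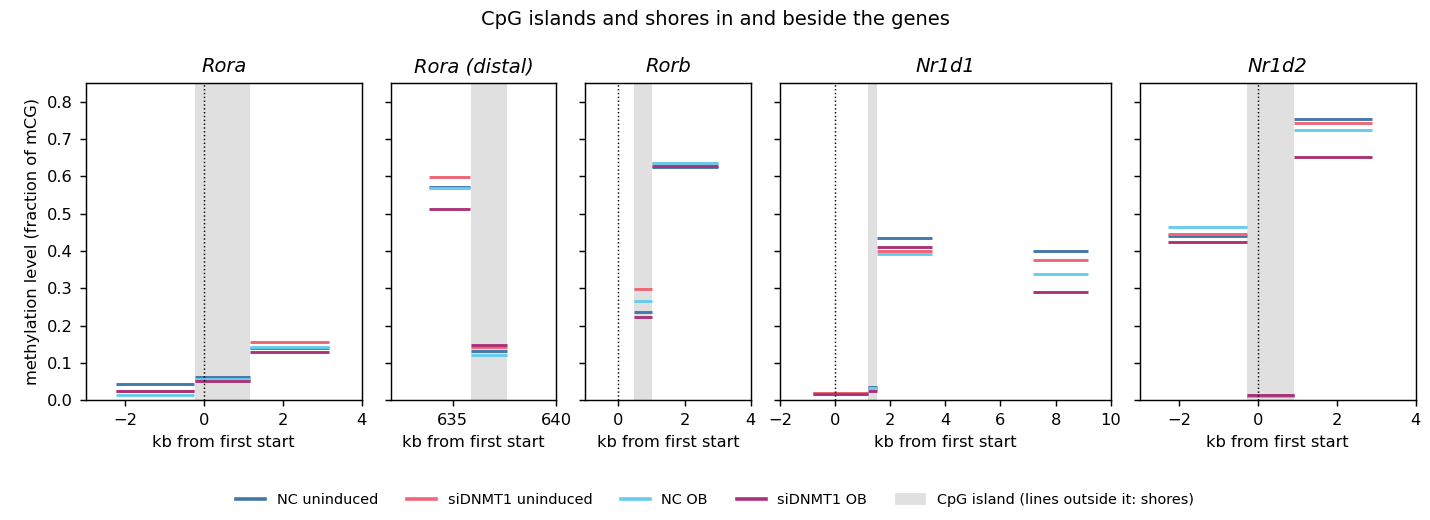
Methylation level (fraction of methylated CpG, y axis) of each island and shore in or within 2 kb upstream of the member genes against distance from the first transcript start in kb, read in the direction of the gene. Each line is 1 region in 1 library, grey bands are islands, and the dotted line is the first start. Levels at the starts of Rora, Nr1d1 and Nr1d2 are below 0.07, while the shore inside Nr1d2 reaches 0.754.

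The promoter and 5′ UTR entries of Nr1d1 diverged more than those of nearly any other gene. The gap between its mean promoter level of 0.799 and its mean 5′ UTR level of 0.0130 was larger than at 99.8% of the 10612 genes with both entries. A promoter of at least 0.7 with a 5′ UTR below 0.1 was found at 105 of these genes, or 0.989%. The gap at Nr1d2, 0.259, was larger than at 90.1% of genes and that at Rora, 0.0841, at 75.9%. Over all genes the median gap was 0.00759.

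Not all sequence before Nr1d1 shared the promoter's level. The shore that spans the start covers the first 794 bases of the 2 kb promoter window, with 15 of its 36 CpGs, and was nearly unmethylated. If every CpG counted equally, the other 21 CpGs could raise the window to 0.609 at most, even when fully methylated and with all methylation of the shore placed in the shared part. The deposited 0.799 is above that, so the entry was not an equal average of all CpGs in this window. Which CpGs were covered by reads, and whether deeper ones weighed more, are not given in the sources used here. A second transcript starts 4907 bases into the gene. The shore inside Nr1d1 (98771805 to 98773804), which covers part of the 2 kb before that start, had levels of 0.436 in NC uninduced, 0.400 in siDNMT1 uninduced, 0.392 in NC OB and 0.410 in siDNMT1 OB cells, also well below the promoter entry.

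A like limit applies to Rora, whose promoter entry was 0.124 in NC uninduced, 0.126 in siDNMT1 uninduced, 0.110 in NC OB and 0.105 in siDNMT1 OB cells. The shore and the island that cover 1759 and 240 of the 2000 bases of its window were both lower than this in every library. Which sequence the entry covers, and with what weights, is not given in the sources used here.

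**Figure D3:**
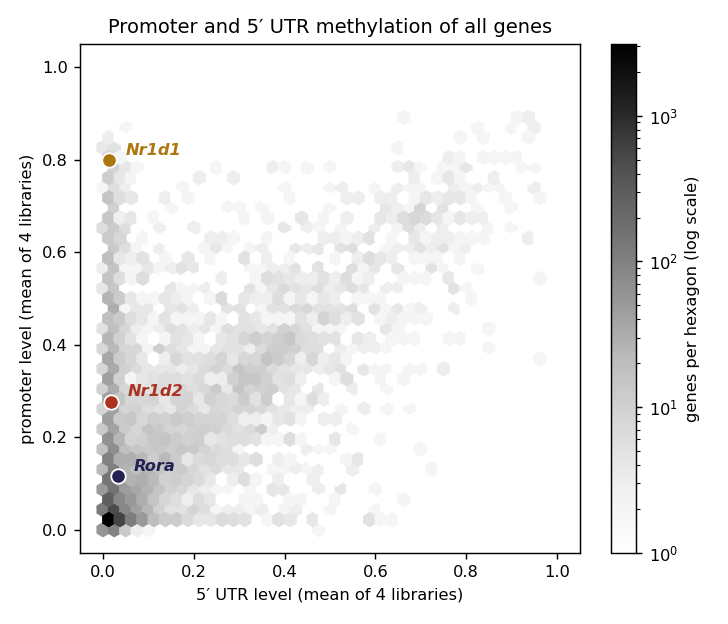
Mean promoter level against mean 5′ UTR level (fractions of methylated CpG over the 4 libraries) for 10612 genes, with the number of genes per hexagon on a log scale of grey and 3 member genes marked. Nr1d1 lies at the top left, with 0.799 and 0.0130, Nr1d2 at 0.277 and 0.0177 and Rora at 0.116 and 0.0320. Rorb has no promoter entry.

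The comparison of siDNMT1 with NC asked whether loss of the maintenance methyltransferase lowered methylation at these genes. Differences of 0.1 or more between both libraries were counted as changes. In uninduced cells none of the 17 gene regions of the members changed, against 1.54% of all gene regions. After OB induction none changed either, against 2.16%. Of the 12 islands and shores, none changed in uninduced cells (1.25% of all) or in OB cells (1.72% of all). With so few regions, a count of 0 is close to these backgrounds and does not set the members apart from other genes. Several members could not be lower by 0.1, because their level was below 0.1 in every library. These were the 5′ UTRs of Rora, Nr1d1 and Nr1d2 and the exons of Nr1d2. They also included the islands of Nr1d1 and Nr1d2, the island at the first start of Rora and the shore across the start of Nr1d1. Because the depth is unknown, whether smaller differences exceed sampling error was not tested.

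Smaller differences in uninduced cells were led by the island of Rorb, which was higher with siDNMT1, and by the 5′ UTR of Rorb and the exons of Rora, which were lower. The exons and the 5′ UTR were lower in the siDNMT1 library, by -0.0610 and -0.0616, and were the only 2 of 17 gene regions that differed by at least 0.05, against 6.51% of all gene regions. Among islands and shores the island of Rorb was the only 1 of 12 past 0.05, higher by 0.0622, against 5.32% of all. The exons of Nr1d1, at 0.608 against 0.566, were higher by 0.0421. The members showed no common direction: 9 of 17 gene regions were lower in the siDNMT1 library and 8 higher, where 55.9% of all gene regions were lower. With each library centred on the median of its region class, 8 of 17 were lower, where 45.3% of all were. Of the islands and shores 6 of 12 were lower (51.5% of all). The median difference was -0.00174 over the member gene regions and -0.00158 over all gene regions.

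After OB induction the largest difference was at Nr1d2. Its promoter stood at 0.307 in NC OB and at 0.255 in siDNMT1 OB cells, a difference of -0.0523, the only 1 of 17 gene regions past 0.05, against 10.1% of all. The shore inside Nr1d2 differed by -0.0718 and the distal shore of Rora by -0.0565. These were the only 2 of 12 islands and shores past 0.05 (7.84% of all), and both are methylated shores. The shore that overlaps the end of Nr1d1 (chromosome 11, 98766144 to 98768143) differed by -0.0495, from 0.339 to 0.289. Most of this shore lies beyond the end of Nr1d1, and all of it within the convergent gene Thra. In total 11 of 17 gene regions were lower with siDNMT1, with 66.8% lower among all gene regions, and 8 of 12 islands and shores, with 62.9% lower among all. With each library centred on its class medians the majority turned for gene regions, of which 7 of 17 were lower (43.5% of all), and 7 of 12 islands and shores were lower (47.9% of all). The median was -0.00474 over the member gene regions and -0.00619 over all, both below 0.

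At the first start of Rora the island and the shore before it were below 0.1, so that a change of this size downward was not possible there. The island differed by -0.00818 before and -0.00533 after induction. The promoter entry differed by 0.00254 and -0.00536, of which the second became 0.00468 once each library was centred on its median promoter. The study reports lower methylation at the Rora promoter after DNMT1 depletion, which it shows for cells before OB differentiation. That finding came from differentially methylated regions called with DSS. The study adds ChIP-qPCR for DNMT1 binding, higher Rora mRNA by RNA-seq and RT-qPCR, and a joint knockdown of Rora and DNMT1. None of these was read here. An entry averages over its region, so a difference in a shorter stretch is not resolved. The shore before the island differed by -0.0176 in uninduced cells, from 0.0427 to 0.0251, and by 0.00840 in OB cells, from 0.0158 to 0.0242. In that shore the NC uninduced library alone was above 0.03, and both OB libraries and the siDNMT1 uninduced library were below it. The shore after the island, at 0.130 to 0.157, differed by 0.0152 in uninduced and -0.0125 in OB cells. At the distal island of Rora the siDNMT1 library was higher in both states, by 0.00969 and 0.0252.

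**Figure D4:**
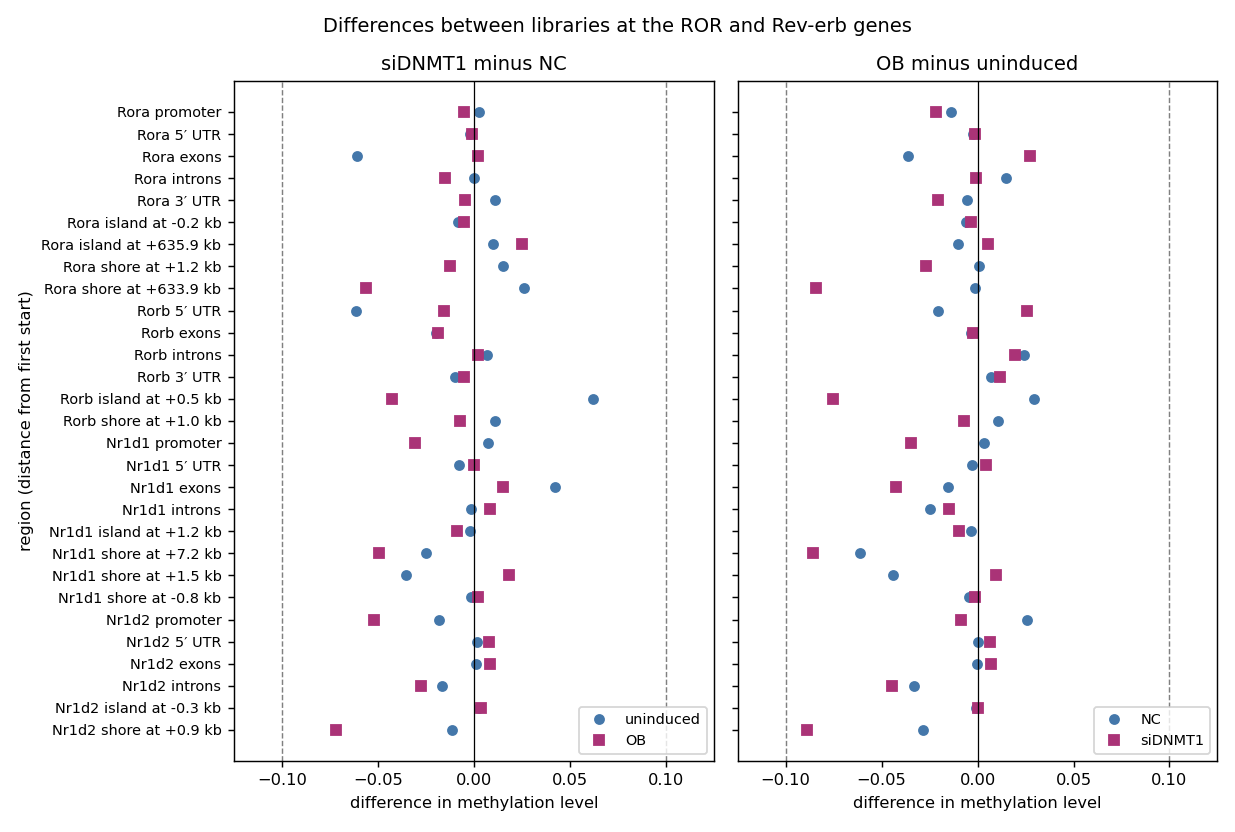
Differences in methylation level (x axis) at each of the 17 gene regions and 12 islands and shores of the members (y axis), as siDNMT1 minus NC on the left and OB minus uninduced on the right. Each point is the difference between 2 libraries, and dashed lines mark the change of 0.1 that was counted. No point lies beyond the dashed lines, and the farthest are the shore inside Nr1d2 at -0.0891 and the shore at the end of Nr1d1 at -0.0855, both OB minus uninduced in siDNMT1 cells.

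The comparison of OB with uninduced cells asked what differed at the same genes after 3 days of induction. No further days in culture are given for the uninduced cells. Induction therefore cannot be told apart from time in culture or time since transfection. The same holds where siDNMT1 differences in OB cells are set beside those in uninduced cells. No member gene region changed by at least 0.1 with induction in NC cells, against 2.15% of all, or in siDNMT1 cells, against 3.40%. The same held for islands and shores, with backgrounds of 2.09% in NC and 2.99% in siDNMT1 cells. Here too, the regions with a level below 0.1 could not be lower by that amount. In NC cells 11 of 17 gene regions were lower after induction, with 61.7% lower among all, and in siDNMT1 cells 10 of 17, with 72.0% among all. Of the islands and shores 9 of 12 were lower in NC cells (67.7% of all) and 9 of 12 in siDNMT1 cells (77.0% of all). After centring these majorities turned. In NC cells 7 of 17 gene regions (36.8% of all) and 5 of 12 islands and shores (38.1% of all) were then lower, and in siDNMT1 cells 4 of 17 (37.3% of all) and 5 of 12 (37.8% of all). Past 0.05 there was no member gene region in NC cells (10.2% of all) or in siDNMT1 cells (14.7% of all). The comparisons with siDNMT1 and with induction share libraries, so their values are not independent.

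Past 0.05 there were 1 of 12 islands and shores in NC cells (10.4% of all) and 4 of 12 in siDNMT1 cells (14.3% of all), every one lower after induction. They were the island of Rorb and 3 shores. The island of Rorb was lower by -0.0753 with induction in siDNMT1 cells and higher by 0.0296 in NC cells. The shore at the end of Nr1d1 was the one past 0.05 in NC cells, with a level of 0.400 before and 0.339 after induction, and had 0.375 and 0.289 in siDNMT1 cells. It was lower in both OB libraries than in both uninduced ones, and its range of 0.111 over the 4 libraries exceeded that of 92.9% of all shores. The median over all shores also differed with induction, by -0.0188 in NC and -0.0297 in siDNMT1 cells. The depth behind the levels of this shore is unknown. The shore inside Nr1d2 and the distal shore of Rora differed by -0.0285 and -0.00147 in NC cells and by -0.0891 and -0.0840 in siDNMT1 cells. For both, the siDNMT1 OB library stood below the other libraries. The introns of Nr1d2 were lower after induction in NC cells, by -0.0333, and in siDNMT1 cells, by -0.0445.

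Few other genes share sequence with the members. Thra, which encodes thyroid hormone receptor α, runs into the end of Nr1d1 from the opposite strand and shares 1075 bases with it. Its promoter had levels of 0.0357 in NC uninduced, 0.0619 in siDNMT1 uninduced, 0.0643 in NC OB and 0.0435 in siDNMT1 OB cells. The antisense gene Gm15511 lies within Rora, and its promoter ranged from 0.780 to 0.833. Both promoters are far from the starts of the members they overlap, and entries of overlapping genes may count the same cytosines.

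The other genes of the clock and of the ROR element pathway were read from a list of 23, which holds clock activators and repressors, PAR bZIP factors, clock kinases and ligase subunits, and corepressor genes such as Hdac3. Promoter levels were listed for 22 of them. None of these promoters changed by at least 0.1 with siDNMT1, either before induction (1.48% of all promoters) or after it (2.20% of all). Most of them had a level below 0.1, where a change of this size downward was not possible. The median difference over the list was 0.00141 in uninduced cells, against -0.000713 over all promoters, and -0.000286 in OB cells, against -0.00371. Arntl, the main gene that ROR and Rev-erb proteins control in the clock, had promoter levels of 0.0937 in NC uninduced, 0.101 in siDNMT1 uninduced, 0.0796 in NC OB and 0.0813 in siDNMT1 OB cells. Arntl was named for its role.

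Among the exon and intron entries of the clock list, 1 changed by at least 0.1 with siDNMT1, and its UTR entries were not read. The exons of Cry2, which encodes a clock repressor, had levels of 0.580 in NC uninduced, 0.548 in siDNMT1 uninduced, 0.670 in NC OB and 0.550 in siDNMT1 OB cells, a difference of -0.120 after induction. The NC OB library alone was high, and the other 3 lay close together. Of the 20 clock genes with an exon entry this was the only change in OB cells, where 2.30% of all exon entries changed. None of the 20 changed in uninduced cells, where 1.64% of all did, and none of the 21 intron entries changed in either state.

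The genes most like each member were those with the smallest mean absolute difference of levels over the member's region classes and the 4 libraries. For Rora, over 20 values and 2808 genes, these were Dazap1 (0.0287), Iffo2 (0.0345) and Dnpep (0.0346). For Rorb, over 16 values without a promoter and 2939 genes, they were Cela1 (0.0219), Reep2 (0.0284) and Pnldc1 (0.0321). For Nr1d1, over 16 values and 9807 genes, they were Atxn1l (0.0448), Mbd3 (0.0453) and Aco1 (0.0468). For Nr1d2 they were Fam69a (0.0169) and Enpp1 (0.0193), followed by Rnf2. The nearest genes to Nr1d1 were farther away than those to Nr1d2, although both were compared with the same 9807 genes. The 20 or 16 values of a gene share libraries and sequence and are a description only.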

How the data were processed

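Bisulfite libraries of 4 groups of C3H10T1/2 cells, 1 per group, were analysed. According to the methods and the submitters' processing notes, the authors trimmed with Trimmomatic 0.36, used Bismark 0.16.3 for alignment to mm10 and deposited, per region, the fraction of methylated CpG cytosines. The labels call the assay RRBS and describe sonication. A coverage minimum, read counts and the weighting of cytosines are not given in the sources used here, so the depth per library and region is unknown.

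Gene entries were matched by Ensembl identifier to GENCODE vM21. Islands and shores are listed by position, with starts counted from 0, and were converted to starts from 1. All 2976 islands on the members' chromosomes began and ended with CG on GRCm38. Promoter entries followed the 2 kb before the gene start on both strands (r = 0.757 and 0.783 across genes with islands or shores there) and not the 2 kb after its end (r = 0.225 and 0.256). Genes are not independent replicates.

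Differences were taken where every library had a level, and a change was counted from 0.1, with a tolerance of 1e-12. With 1 library per group no test was run. The members and lists were chosen with earlier results of these data known. Named genes are the members, genes overlapping them, the 3 nearest in pattern to each, and clock genes with a promoter, exon or intron entry changed by siDNMT1. Some genes of the clock list are not reported here by name. The counting was tested on simulated data. Promoter sequences are from RefSeq (GRCm38.p6). Alternatives covered the threshold, centring, the libraries required, the gene extent, other region classes and the measure of likeness. Python 3.11.15, pandas 2.3.3, numpy 2.4.6 and matplotlib 3.10.9 were used.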

Additional observations from a re-analysis of the deposited data

Results flagged for a closer look

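At 2 regions the siDNMT1 minus NC difference had opposite signs in uninduced and OB cells, with at least 0.02 each way. The distal shore of Rora was 0.0261 higher with siDNMT1 in uninduced cells and lower by -0.0565 in OB cells, a change of the difference by -0.0826. The island of Rorb was 0.0622 higher with siDNMT1 in uninduced cells and lower by -0.0427 in OB cells, a change by -0.105. With 1 library per group these changes were not tested, and induction cannot be told apart here from time since transfection. Opposite signs of any size were found at 12 of the 29 member regions and at 43.3% of all regions of these classes, and opposite signs of at least 0.02 at 2 of 29 and 5.68% of all. The shares of the members were thus near those of all regions.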

How the results depend on the processing

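Of 50 alternative values, 40 stayed at the reported count of 0 or kept at least 2 of the 3 nearest genes. Part of these 40 could not have differed. A count of 0 from a threshold of 0.1 is also 0 from the higher threshold of 0.2. Requiring only the compared libraries added nothing, because every member gene region has a level in each library. The 40 are therefore not a measure of how stable the counts are. A threshold of 0.05 moved the counts of changed member gene regions with siDNMT1 to 2 in uninduced and 1 in OB cells, and those of islands and shores to 1 and 2. With induction it gave 1 island or shore in NC and 4 in siDNMT1 cells. The exon entries of the clock list in place of its promoters gave 1 change in OB cells. Ranked by Pearson correlation, 0 of the 3 nearest genes of Rorb, 1 of those of Nr1d1 and 0 of those of Nr1d2 stayed among the nearest 3, so these names depend on the measure. Centring each library on its class median moved the 116 member differences by at most 0.0297 and changed the sign of 24 of them, none past 0.1, so the direction of small differences and the majority direction over gene regions depend on scaling. No paired analysis was possible because each group holds 1 library. Depth is unknown, and what sampling error alone would give was not tested.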

Other observations

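The exons of Hlf, a PAR bZIP factor of the clock output, had levels of 0.143 in NC uninduced, 0.181 in siDNMT1 uninduced, 0.0519 in NC OB and 0.0699 in siDNMT1 OB cells. Both OB libraries were below both uninduced ones, and the difference with induction was -0.0909 in NC and -0.111 in siDNMT1 cells. Of the 20 clock exon entries, it was the only 1 changed by at least 0.1 with induction in siDNMT1 cells (3.63% of all exon entries). None changed in NC cells (2.18% of all). The read depth behind these levels is unknown, and this gene was named after its values were seen.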
